A study of Mus musculus with 3 samples.

Results

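Nuclear genes of the mitochondrial respiratory chain were examined in chromatin-associated RNA of mouse macrophages. Members were taken by name: symbols that begin with Nduf, Uqcr, Atp5 or Cox4 to Cox8, and Sdha, Sdhb, Sdhc and Sdhd, each with at least 1 transcript annotated as protein_coding and without the pseudogene suffix -ps. The rule gave 94 gene entries of 55536 annotated genes. They carry 93 symbols, because Atp5o has 2 gene identifiers. Complex I held 46 entries, complex II 4, complex III 8, complex IV 18 and complex V 18. A further 13 entries matched the name patterns and were left out for want of a coding transcript or for the suffix, among them Cox6c2, Ndufs6b and Ndufa11b. This rule uses names and annotation.

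All 3 libraries belong to 1 group, so levels can be given here and responses to treatment cannot. Macrophages grown from bone marrow progenitors of C57BL/6J mice were exposed to Lipid A, the part of bacterial lipopolysaccharide that Toll-like receptor 4 binds, at 100 ng/ml for 12 hours. They were washed, rested for 12 hours and given 100 ng/ml Lipid A again for 50 minutes before RNA of the chromatin fraction was isolated, depleted of ribosomal RNA and sequenced. Macrophages without the second or without any Lipid A were not analysed here. Starting amounts of 1000, 250 and 500 ng are given for replicates 1, 2 and 3. The labels repeat a single donor name and do not say whether the replicates were separate animals or cultures, and their spread may be technical.

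The respiratory chain passes electrons from NADH (complex I) and succinate (complex II) through ubiquinone to complex III, cytochrome c and complex IV, which reduces oxygen. Complexes I, III and IV pump protons out of the mitochondrial matrix, and complex V, the ATP synthase, uses their return to make ATP. Macrophages given lipopolysaccharide or its lipid A are known to shift from respiration towards glycolysis. Chromatin RNA holds transcripts that are still being made or are kept at the chromatin, so these values stand closer to nuclear transcript pools than to the messenger RNA that ribosomes read.

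The alignment-based tables held 13897176, 19597343 and 19348626 expected counts in replicates 1, 2 and 3. The members took 0.0479%, 0.0564% and 0.0412% of the counts of annotated genes. A count of 0 allows up to 3 counts, which for the median member would be 0.298 to 0.360 TPM (transcript abundance corrected for length and scaled to a fixed library total) in these libraries, and such floors cover counting error only. In the alignment-based tables all 8 macrophage markers had at least 1 TPM in every library, with a summed level of 888 to 1207 TPM. None of the 28 markers of neutrophils, T and NK cells, B cells, muscle, testis germ cells or stromal and endothelial cells did, although Pecam1 reached 1.45 ± 0.727 TPM. The 5 muscle markers summed to 0 to 0.07 TPM and the 4 germ cell markers to 0.34 to 0.63 TPM.

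Of the 94 members, 68 (72.3%) had at least 1 TPM in each library, called detected here, against 39.2% of all 22028 protein-coding genes. The median member stood at 3.10 TPM (mean of 3 libraries), against 0.367 TPM for all protein-coding genes. Above 10 TPM were 22 members, 52 lay between 1 and 10 TPM, and 20 were below 1 TPM. All 4 members of complex II and all 8 of complex III were detected, as were 30 of 46 in complex I, 11 of 18 in complex IV and 15 of 18 in complex V. Median levels were 2.04 TPM for complex I, 8.26 for complex II, 4.19 for complex III, 2.61 for complex IV and 8.32 for complex V. Their order depended on what was counted. In the read-based tables, a second quantification of the same libraries, the medians of complexes I to V were 4.45, 13.2, 7.80, 9.80 and 10.8 TPM. With protein_coding transcripts alone they were 1.16, 3.34, 3.24, 1.77 and 2.58 TPM. Complex IV thus lay below complex III by alignment and above it in the read-based tables, and complex V lay below complexes II and III when coding transcripts alone were counted. In bulk RNA of this kind, fewer cells that express a gene and less of its RNA in each cell cannot be told apart. Counts were low for many of these short genes: 71 members averaged fewer than 100 counts and 20 averaged fewer than 10.

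**Figure D1:**
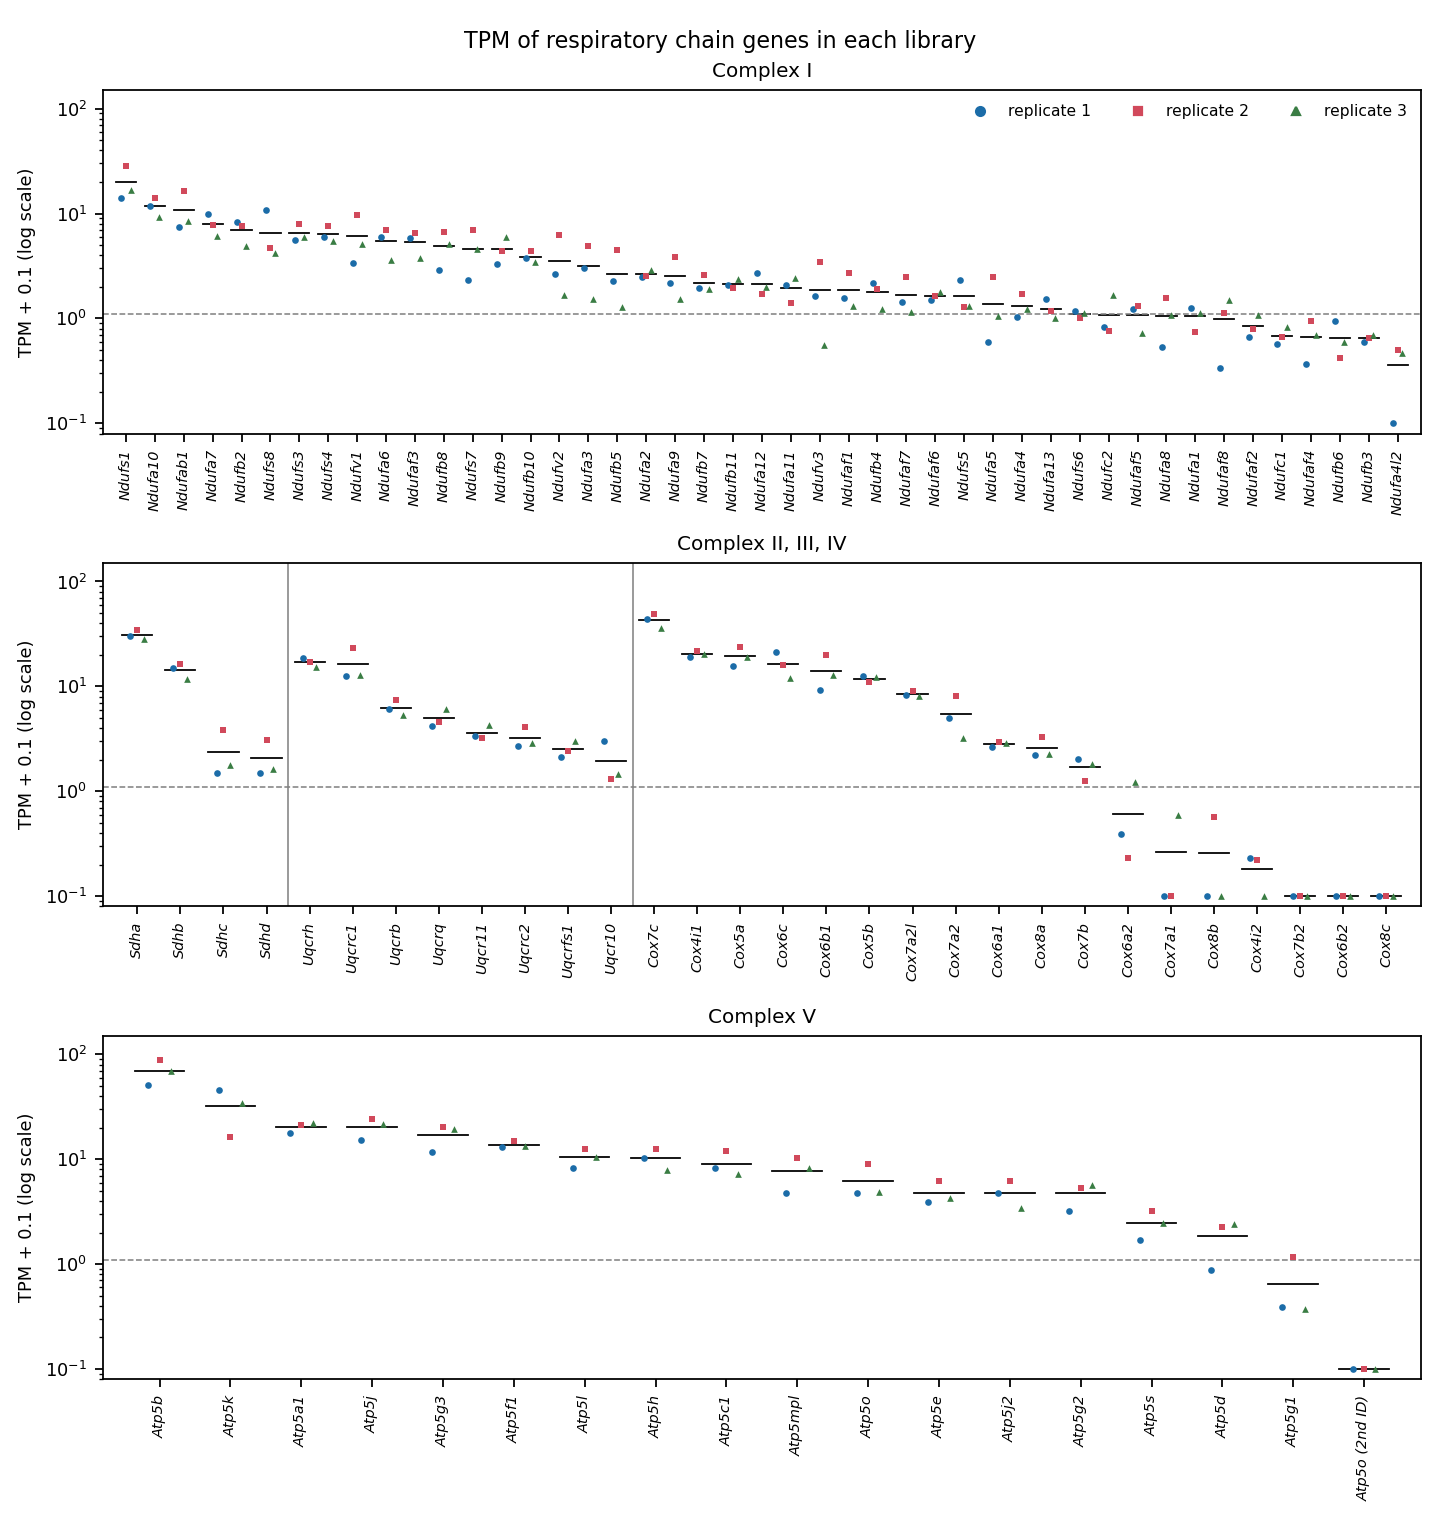
Alignment-based TPM of the members in each library (1 of the 94 is not drawn), sorted by mean within a complex, on a log axis to which 0.1 was added so that values of 0 can be drawn. Points are the 3 libraries, short bars their means, and the dashed line marks 1 TPM. Atp5b lies highest in every library, and the tissue isoforms of complex IV lie at the lower end.

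Complex I transfers electrons from NADH to ubiquinone through a chain of iron-sulfur clusters, and 7 of its core redox subunits are encoded in the nucleus. All 7 were detected. Their median was 6.45 TPM, and 6 of the 7 were highest in replicate 2. Ndufs1, the largest iron-sulfur subunit (mm10 chromosome 1, 63143596 to 63176833, minus strand), had 13.9, 28.5 and 16.8 TPM in replicates 1, 2 and 3. By alignment Ndufs1 led complex I in each library, with replicate 2 apart from replicates 1 and 3. Ndufs8, which binds iron-sulfur clusters on the way to ubiquinone (mm10 chromosome 19, 3908863 to 3912774, minus strand), went the other way, with 10.7, 4.57 and 4.12 TPM from 120, 56 and 51 expected counts. Replicate 1 was highest for Ndufs8 in the read-based tables as well, at 42.1, 21.6 and 20.3 TPM. In those tables Ndufs8 exceeded Ndufs1 in replicate 1, where Ndufs1 had 35.8 TPM.

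Ndufs3, at 6.45 ± 1.26 TPM (mean ± SD, n = 3, as in all such values), and Ndufv1, which binds NADH and flavin, at 5.98 ± 3.26 TPM, were close in mean by alignment. Ndufv1 spread more widely there. Ndufs7, the subunit with the last cluster before ubiquinone, had 2.22, 6.88 and 4.49 TPM, and Ndufv2, an iron-sulfur partner of Ndufv1, had 2.53, 6.18 and 1.58 TPM. Both were highest in replicate 2. By alignment both were below Ndufv1 in each library, and their order relative to each other changed between libraries. In the read-based tables Ndufs7 was above Ndufv1 in each library, at 7.52, 34.5 and 24.5 against 5.29, 13.5 and 6.23 TPM. Ndufv2, at 5.85, 14.3 and 6.03 TPM, was above Ndufv1 there in replicates 1 and 2.

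The 31 supernumerary subunits of complex I, which surround the catalytic core, ranged from 0.257 to 11.7 TPM, and 19 were detected. Ndufa10 was highest with 11.8, 14.1 and 9.15 TPM. Ndufab1, the mitochondrial acyl carrier protein, had 7.26, 16.2 and 8.46 TPM and was highest in replicate 2. At the low end Ndufb6 had 0.84, 0.32 and 0.5 TPM from at most 4 counts a library, and Ndufb3 had 0.5, 0.55 and 0.59 TPM from 4, 5 and 5 counts. Ndufb3 and Ndufb6 overlapped, and counts this small do not order them. Ndufa1, at 4, 2 and 3 counts, also sat at the floor of 3 counts. The 8 assembly factors, which help build complex I and are not part of it, had a median of 1.27 TPM, and 4 were detected: Ndufaf3 (5.25 ± 1.44 TPM), Ndufaf1 (1.75 ± 0.752), Ndufaf7 (1.59 ± 0.692) and Ndufaf6 (1.55 ± 0.140). Ndufaf5, Ndufaf8, Ndufaf2 and Ndufaf4 averaged 0.983, 0.887, 0.75 and 0.57 TPM. By alignment Ndufaf3 was above the other 7 assembly factors in every library. In the read-based tables Ndufaf8 was higher in each, at 6.61, 9.34 and 8.52 TPM against 4.84, 4.40 and 3.19 TPM.

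Complex II oxidises succinate and is also an enzyme of the citric acid cycle. By alignment its 4 genes fell into a steep order. Sdha, the flavoprotein with the succinate site (mm10 chromosome 13, 74322254 to 74350280, minus strand), had 30.3, 34.5 and 28.3 TPM, and Sdhb, the iron-sulfur subunit (mm10 chromosome 4, 140961203 to 140979193, plus strand), had 14.8, 16.3 and 11.6 TPM. In contrast, the membrane anchors Sdhc, at 1.38, 3.77 and 1.7 TPM, and Sdhd, at 1.39, 2.96 and 1.53 TPM, were lower. Sdha lay above Sdhb and Sdhb above both anchors in all 3 libraries, whereas the anchors overlapped each other. The read-based tables separated the anchors, with Sdhc at 9.26, 11.6 and 6.39 TPM and Sdhd at 1.40, 3.18 and 1.91 TPM. With coding transcripts alone, Sdha, Sdhb, Sdhc and Sdhd averaged 12.3, 4.39, 2.28 and 1.96 TPM. Expected counts averaged 608 for Sdha, 201 for Sdhb, 71.7 for Sdhc and 32.3 for Sdhd.

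In complex III, which passes electrons from ubiquinol to cytochrome c, Uqcrh and Uqcrc1 led. Uqcrh, the hinge protein that helps cytochrome c dock, had 18.6, 17.0 and 15.1 TPM, and Uqcrc1, a core protein facing the matrix, had 12.4, 23.3 and 12.8 TPM. Neither was higher in every library, since Uqcrc1 exceeded Uqcrh in replicate 2 alone. Uqcrb, a subunit near the quinone site, followed at 6.18 ± 1.11 TPM. Uqcrc2, the partner of Uqcrc1 in the core, reached 3.13 ± 0.768 TPM and was below Uqcrc1 in all 3 libraries. The lowest were Uqcrfs1, the Rieske iron-sulfur protein, at 2.42 ± 0.452 TPM and Uqcr10, a small membrane subunit, at 1.83 ± 0.944 TPM, the latter from 11, 5 and 4 counts. Cyc1, the cytochrome c1 subunit whose symbol lies outside the name patterns, had 2.13, 7.45 and 4.57 TPM.

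The 11 subunit genes of complex IV other than the tissue isoforms were all detected and had a median level of 11.8 TPM. Cox7c, a small membrane subunit (mm10 chromosome 13, 86044816 to 86046904, minus strand), had 43.9, 49.0 and 36.0 TPM and lay above every other complex IV gene in each library. Cox4i1, the regulatory subunit that binds ATP (mm10 chromosome 8, 120668222 to 120674207, plus strand), had 18.9, 21.4 and 20.5 TPM, and Cox5a, next to it in the enzyme, had 15.6, 23.5 and 19.1 TPM. These 2 overlapped. Cox5b, the zinc-binding subunit, had 12.4, 10.8 and 12.1 TPM, Cox6a1 2.54, 2.83 and 2.8 TPM and Cox7a2l 8.23, 8.86 and 7.95 TPM, and all of them differed little between libraries. Cox8a, at 2.12, 3.2 and 2.19 TPM, and Cox7b, at 1.93, 1.15 and 1.73 TPM, were the lowest of the 11 by alignment-based mean.

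Several complex IV positions can be filled by alternative genes. None of the 7 tissue isoforms was detected. Cox6b2, Cox7b2 and Cox8c, forms known from testis, were at 0 counts throughout, and the floor of 3 counts would amount to between 0.579 and 0.849 TPM. Cox6b1 was at least 18.3-fold higher than Cox6b2, Cox8a at least 3.11-fold higher than Cox8c, and Cox7b at least 2.69-fold higher than Cox7b2, each set against a floor of 3 counts per library. Cox4i2, a lung and hypoxia-linked form, had 1, 1 and 0 counts, and the heart and muscle forms Cox7a1, Cox8b and Cox6a2 had 0, 0 and 2, 0, 1 and 0 and 2, 1 and 8 counts. Such counts are at or under the floor except for Cox6a2 in replicate 3, which reached 1.12 TPM.

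Pairs were compared within each library as a difference of log2(TPM + 1), a scale that understates the change of low genes. Cox4i1 exceeded Cox4i2 by 4.29 ± 0.15, Cox6b1 exceeded Cox6b2 by 3.83 ± 0.52 and Cox7a2 exceeded Cox7a1 by 2.40 ± 0.87. Smaller differences separated Cox8a from Cox8c (1.80 ± 0.24), Cox8a from Cox8b (1.61 ± 0.08), Cox7b from Cox7b2 (1.37 ± 0.23) and Cox6a1 from Cox6a2 (1.35 ± 0.47). In each of these 7 pairs the broadly expressed gene was higher in 3 of 3 libraries. With 3 libraries, the exact two-sided sign-flip permutation test cannot give less than p = 0.25, which all 12 pairs examined reached, before and after Benjamini-Hochberg adjustment over the 12.

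Cox7a2l, also called SCAF1 and known for joining complexes III and IV, shares sequence with Cox7a2, a subunit of complex IV itself. The 2 changed order between the quantifications. In the alignment-based tables Cox7a2 was lower, at 4.9, 8.06 and 3.14 TPM, and the difference to Cox7a2l was -0.63 ± 0.50 on the log2(TPM + 1) scale, with 0 of 3 libraries higher for Cox7a2. The read-based tables, made from the same libraries without that alignment, gave Cox7a2 18.6, 31.6 and 27.5 TPM and a difference of 1.43 ± 0.34, higher in 3 of 3 libraries. Cox7a2l itself was almost equal in both, at 8.35 ± 0.466 and 8.76 ± 0.748 TPM. No order between these genes can therefore be given.

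Ndufa4 is grouped with complex I by its symbol, although its protein is now regarded as a subunit of complex IV. It had 0.94, 1.6 and 1.14 TPM, above its paralogue Ndufa4l2, a hypoxia-linked gene with 0, 2 and 2 counts, by 0.83 ± 0.17 on the log2(TPM + 1) scale. A further paralogue, AA467197, had 2.43, 0.58 and 1.28 TPM and overlapped Ndufa4. AA467197 was lowest in replicate 2, where Ndufa4 was highest.

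**Figure D2:**
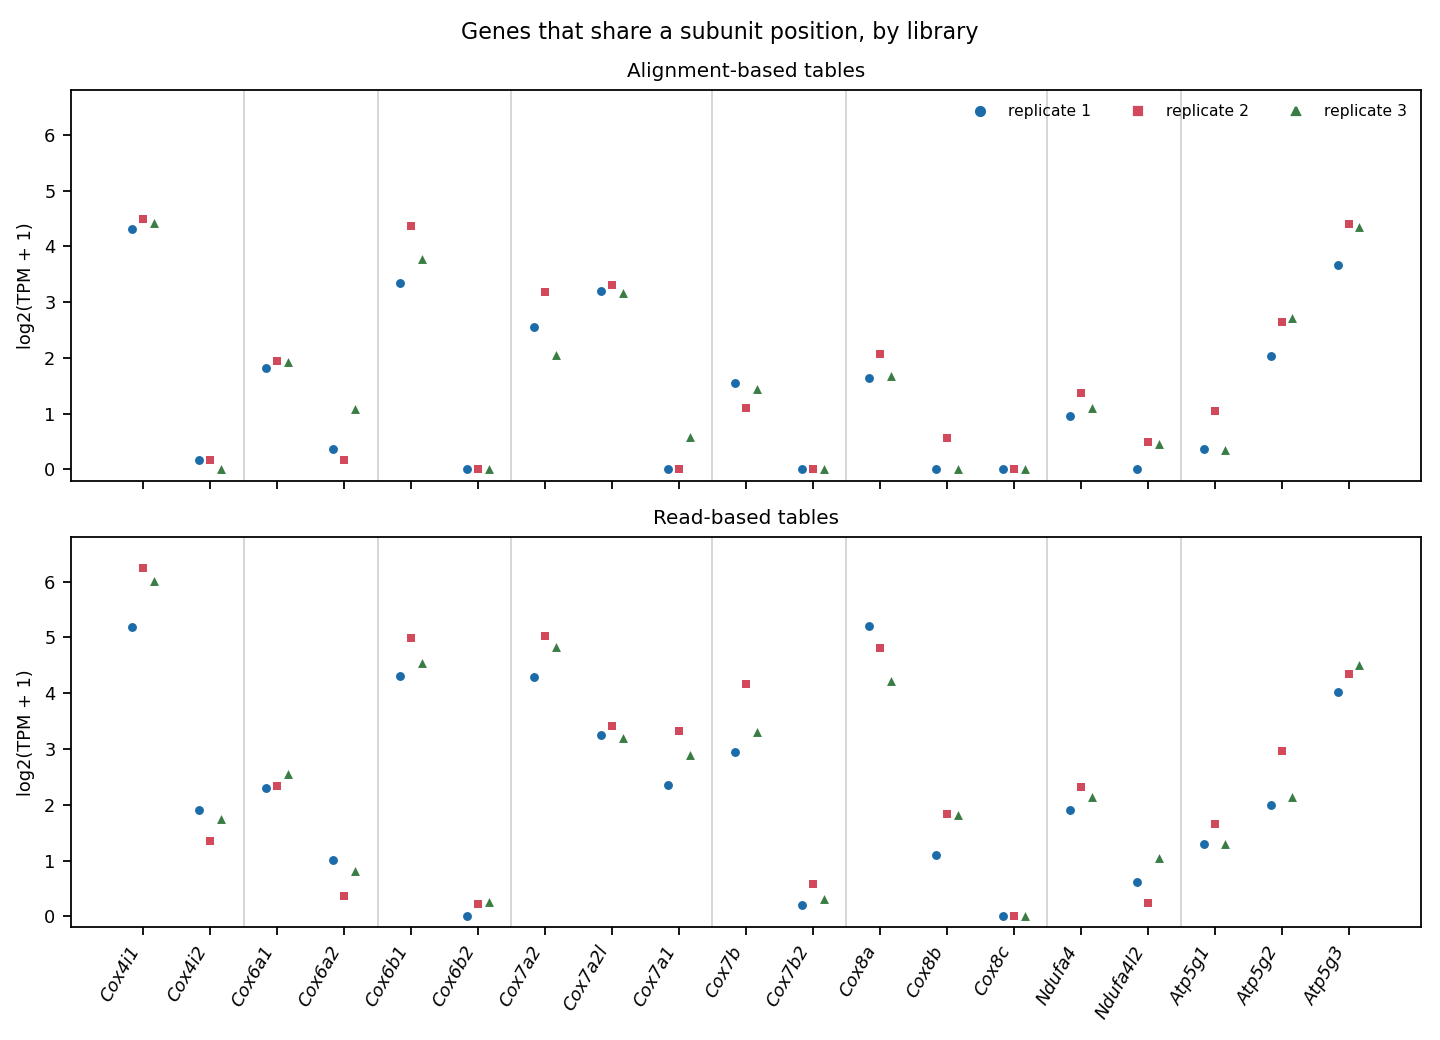
Genes that share a subunit position, as log2(TPM + 1) in each library, from the alignment-based tables (above) and the read-based tables (below). Vertical lines separate the positions. Cox7a2 lies below Cox7a2l in the upper panel and above it in the lower, and Cox7a1 and Cox8b are near 0 in the upper panel alone.

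By alignment complex V held the highest member of all. Atp5b, the catalytic beta subunit of the F1 head (mm10 chromosome 10, 128083273 to 128090391, plus strand), had 51.0, 89.1 and 69.7 TPM from 643, 1097 and 838 counts and exceeded every other member in each library. Its partner Atp5a1, the alpha subunit, had 17.8, 21.1 and 22.2 TPM and stayed well below it. The rest of the head and central stalk were lower: Atp5c1 (gamma) averaged 9.00 ± 2.44 TPM, Atp5e (epsilon) 4.70 ± 1.23 TPM and Atp5d (delta) 1.74 ± 0.832 TPM. These 5 subunits therefore spanned 1.74 to 69.9 TPM, although they belong to 1 particle. In the read-based tables Atp5b was below Cox7c in replicate 2, at 73.3 against 91.4 TPM. It was below Cox4i1 in replicate 3, at 60.2 against 63.5 TPM.

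Atp5k, the small membrane subunit e that helps ATP synthase form dimers (mm10 chromosome 5, 108433244 to 108434448, minus strand), had 45.6, 16.3 and 34.2 TPM from 208, 77 and 150 counts. Replicate 2 was lowest for Atp5k, and it was lowest in the read-based tables too, at 59.0, 33.0 and 48.0 TPM. Among the other parts of the peripheral stalk and membrane domain, Atp5j (coupling factor 6) had 15.3, 24.1 and 21.7 TPM and Atp5f1 (subunit b) had 13.1, 14.7 and 13.3 TPM. The remaining expressed genes of this class, Atp5l, Atp5h, Atp5mpl, Atp5o and Atp5j2, averaged between 4.68 and 10.3 TPM. The second identifier of Atp5o is a long annotated gene of 242585 bases that overlaps the first and had 0 counts in every library and 0 TPM in both tables. Atp5s, a coupling factor outside the core enzyme, had 2.36 ± 0.765 TPM.

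The c subunit that forms the rotating ring is made from 3 genes whose mature proteins are identical. Atp5g3 was highest with 11.7, 20.2 and 19.3 TPM, Atp5g2 followed with 3.11, 5.24 and 5.57 TPM, and Atp5g1 had 0.29, 1.08 and 0.27 TPM. Expected counts were 18, 40.9 and 20 for Atp5g1 and 21.4, 38 and 35.3 for Atp5g2, so Atp5g1 had more in replicate 2. In replicate 1 a count of 3 amounts to 0.0487 TPM for Atp5g1 and 0.435 TPM for Atp5g2. The TPM order was the same in 3 of 3 libraries, with log2(TPM + 1) differences of -3.55 ± 0.39 for Atp5g1 minus Atp5g3, -1.88 ± 0.43 for Atp5g1 minus Atp5g2 and -1.67 ± 0.08 for Atp5g2 minus Atp5g3. It also held in the read-based tables, at -2.88 ± 0.29, -0.96 ± 0.32 and -1.93 ± 0.50. Most of the Atp5g3 level was outside its coding transcripts (84.4%), and with coding transcripts alone Atp5g2 exceeded Atp5g3 by 0.62 ± 0.06 (SD, n = 3) on the log2 scale. Like all pairs, these reached p = 0.25, the lowest value of the exact permutation test here.

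Much of what was counted for these genes lay in annotated transcripts that do not encode the protein. Summed over members, protein_coding transcripts took 43.3%, 37.8% and 43.8% of the TPM in replicates 1, 2 and 3, and transcripts annotated as retained_intron, which keep an intron inside, took 45.0%, 48.3% and 43.8%. For all protein-coding genes the shares were 49.2% ± 2.29 (SD, n = 3) coding and 37.9% ± 1.96 retained_intron. Of the 68 detected members, 40 (58.8%) had more than 50% of their TPM outside protein_coding transcripts, against 42.8% of detected protein-coding genes. In 34 of the 68 (50%) retained_intron transcripts alone held more than 50%, against 26.2% of detected protein-coding genes. These tables cannot tell RNA that is not yet spliced from finished transcripts that keep the intron, and a model that shares exons with a coding transcript also takes a portion of the shared reads.

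The members differed widely in this respect. Ndufb10 (97.8%), Atp5f1 (97.5%), Ndufb4 (96.0%), Ndufa7 (95.4%) and Cox5a (85.7%) had the largest shares outside coding transcripts. Cox4i1 had 81.7% of its level in retained_intron models, Ndufa10 82.2% and Atp5k 71.1%. For Sdhb (69.2% outside), Ndufs3 (76.4%) and Atp5g3 the outside part was in models typed processed_transcript, which have no open reading frame assigned, and no retained_intron model is annotated for them. In contrast, 16 of the 68 detected members had less than 10% outside coding transcripts, a share similar to the 1915 of 8638 detected protein-coding genes. Among the 16 were Cox7c (0.714%), Ndufs8, Ndufv2, Sdhc, Sdhd, Uqcrfs1, Atp5c1 and Atp5g2. With coding transcripts alone Cox7c took the place of Atp5b as the highest member, at 42.7 TPM, ahead of Atp5a1 at 15.2 TPM, Sdha at 12.3 TPM and Atp5b at 10.6 TPM.

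A retained_intron model can take reads only where one is annotated, and 51 of the 94 members have one. The 51 had a median of 5.98 TPM, and 45 were detected. The 43 without such a model had a median of 1.75 TPM, and 23 were detected. Counted over coding transcripts alone, the medians were 1.74 and 1.42 TPM. All protein-coding genes showed medians of 4.17 TPM with and 0.0133 TPM without a model, and 5705 of 9119 and 2933 of 12909 were detected. For those genes the medians over coding transcripts alone were 1.73 and 0.01 TPM, so the gap between genes with and without a model narrowed among the members and stayed wide among all genes. The part of the annotation in these levels was not tested.

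**Figure D3:**
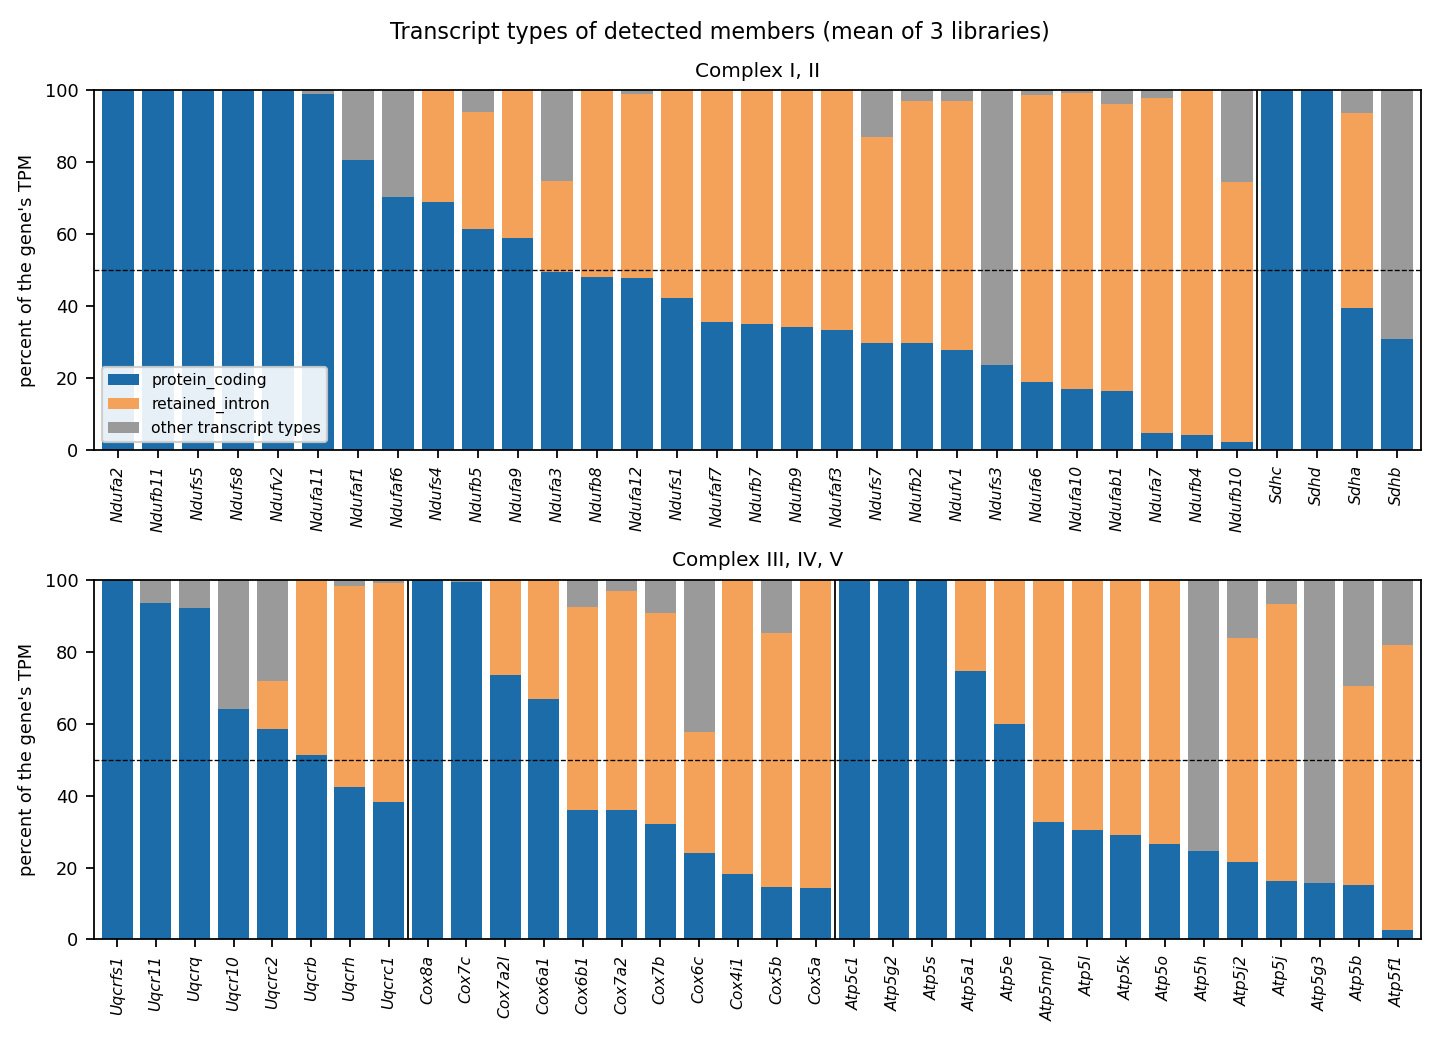
Share of a detected member's TPM by annotated transcript type (mean of 3 libraries, 1 of the 68 not drawn), with bars that add up to 100% and a dashed line at 50%. Ndufb10 and Atp5f1 have almost no coding share, and Cox7c, Ndufs8 and Sdhc are almost wholly coding.

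The read-based tables placed 85 of 94 members at 1 TPM or more in every library, against 49.7% of protein-coding genes. The 85 included all 68 detected by alignment and 17 more. Of the 87 members with a mean of at least 1 TPM in either table, 23 were at least 2-fold higher in the read-based tables on the log2(TPM + 1) scale (26.4%), against 28% of 12082 protein-coding genes. None was 2-fold higher in the alignment-based tables, against 0.182% of those genes. Across the 87 members the tables correlated with Pearson's r of 0.87 on the log2 scale, which describes genes measured in the same libraries and is no test. As a group the members thus differed between tables about as often as other genes.

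The largest gap was for Cox8a, which had 2.12, 3.2 and 2.19 TPM in the alignment-based tables and 35.9, 27.0 and 17.6 TPM in the read-based tables. Its 550-base protein_coding transcript alone went from a mean of 2.50 to 22.2 TPM. Read-based levels of Cox8a did not overlap the alignment-based levels, and the library order changed as well. For Cox7a1 the values were 0, 0 and 0.5 against 4.11, 8.98 and 6.42 TPM, so that this heart and muscle form was above 1 TPM in each library only in the read-based tables. Cox8b and Cox4i2 did likewise, at 1.15, 2.57 and 2.50 and 2.75, 1.56 and 2.34 TPM. In those tables the 5 muscle markers summed to between 5.44 and 10.9 TPM, against at most 0.07 TPM by alignment. Most of this was Myh7, at a mean of 7.41 TPM, which had 0 counts in every library by alignment. Markers of other cells were higher there too. The 5 of T and NK cells summed to 14.4 to 20.7 TPM, against 0.23 to 0.36 TPM by alignment, mostly Cd3d at a mean of 15.7 TPM, which had 0 counts by alignment. The 4 stromal and endothelial markers summed to 3.49 to 13.8 TPM, against 1.12 to 2.97 TPM by alignment. The part of these marker values in the levels of Cox7a1 and Cox8b was not tested. Cox8c was at 0 in both tables, and Cox6b2 and Cox7b2 stayed below 1 TPM in both.

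Others with a wide gap were Ndufa12, at 2.04 ± 0.498 against 14.8 ± 5.72 TPM, the assembly factor Ndufaf8, at 0.887 ± 0.588 against 8.15 ± 1.40 TPM, and Cox7b, at 1.60 ± 0.405 against 10.8 ± 5.42 TPM. Among core subunits of complex I, Ndufs7 averaged 4.53 against 22.2 TPM and Ndufs8 6.45 against 28.0 TPM. Levels of these genes depend on the table. Among the highest members the gap varied. Atp5b stood at 69.9 ± 19.0 and 65.3 ± 7.03 TPM, and Cox7c at 43.0 ± 6.54 and 69.4 ± 19.1 TPM. In contrast, the read-based mean was at least 2-fold higher on the log2(TPM + 1) scale for Sdha (31.0 against 63.5 TPM), Cox4i1 (20.3 against 57.8 TPM) and Ndufs1 (19.7 against 49.3 TPM).

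**Figure D4:**
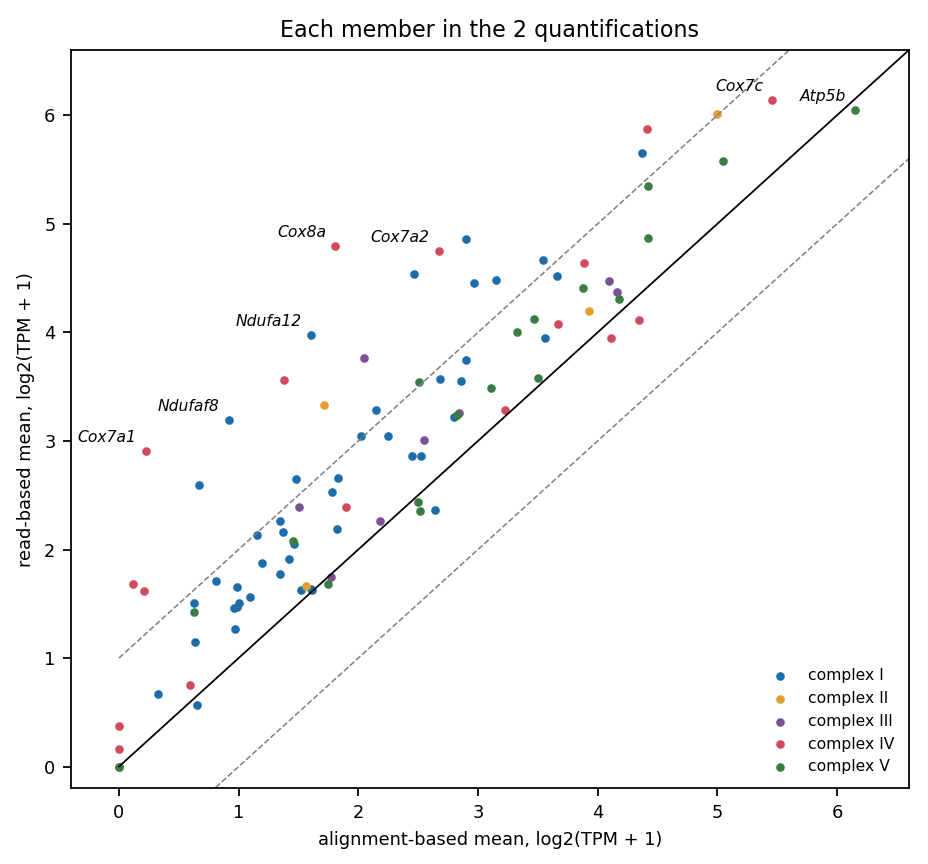
Mean level of each member in the alignment-based (horizontal) and read-based (vertical) tables, both as log2(TPM + 1), coloured by complex. The solid line marks equal values and the dashed lines a 2-fold difference. Cox8a and Cox7a1 lie farthest above the line, and no member lies below the lower dashed line.

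Libraries were compared over the 74 members with a mean of at least 1 TPM. Their coefficient of variation had a median of 27.2%, against 24.1% for 9450 protein-coding genes at that level. Counting error alone would give a median of 14.0% for the members and 6.10% for those genes, so fewer counts stood behind the members. By alignment Cox7a2l (5.58%), Cox6a1 (5.86%), Cox4i1 (6.43%), Atp5f1 (6.49%) and Cox5b (7.17%) varied least. All 5 lay below the members' median counting error of 14.0%, and Cox6a1 had only 15, 17 and 15 counts. These low values are therefore no measure of stable levels. In the read-based tables Cox4i1 had 35.2, 74.8 and 63.5 TPM. Ndufv3 (81.5%), Ndufa5 (77.6%), Ndufv2 (70.8%), Ndufb5 (63.3%) and Sdhc (56.8%) varied most, Ndufa5 from 1, 5 and 4 counts. Across genes, log2(TPM + 1) of the members correlated between libraries with Pearson's r of 0.90 to 0.94, against 0.95 to 0.97 for the 9450 genes.

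Replicate 2 was highest for 49 of the 74 members (66.2%), against 56.4% of the 9450 genes. That count rests on the scale. With expected counts scaled by edgeR's TMM method it was 28 of 74 (37.8%), against 38.1% of the same genes. By complex, replicate 2 led for 22 of 35 members in complex I, 4 of 4 in complex II, 3 of 8 in complex III, 8 of 11 in complex IV and 12 of 16 in complex V on the TPM scale, and for 15, 2, 2, 1 and 8 of them on the TMM scale. The core subunits of complex I kept replicate 2 highest for 5 of 7 after TMM scaling. Complex IV kept it for 1 of 11. Replicate 2 is also the library with the smallest starting amount and the most counts, and their part in this was not tested.

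Replicate 1, with the largest starting amount, stood at a median log2 ratio of -0.17 to the mean of replicates 2 and 3 over the 74 members, against -0.20 over the 9450 genes. After TMM scaling the ratio was 0.10 for the members and -0.06 for all. The direction of this difference therefore turned with the scaling. Members highest in replicate 1 numbered 14 of 74 by TPM, against 2074 of the 9450 genes. In the read-based tables they numbered 9 of 74, against 2517 of the 9450 genes, and 5 members were highest there in both tables. Replicate 1 led by the widest margin in Atp5k and Ndufs8, at log2(TPM + 1) ratios of 0.83 and 1.13.

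**Figure D5:**
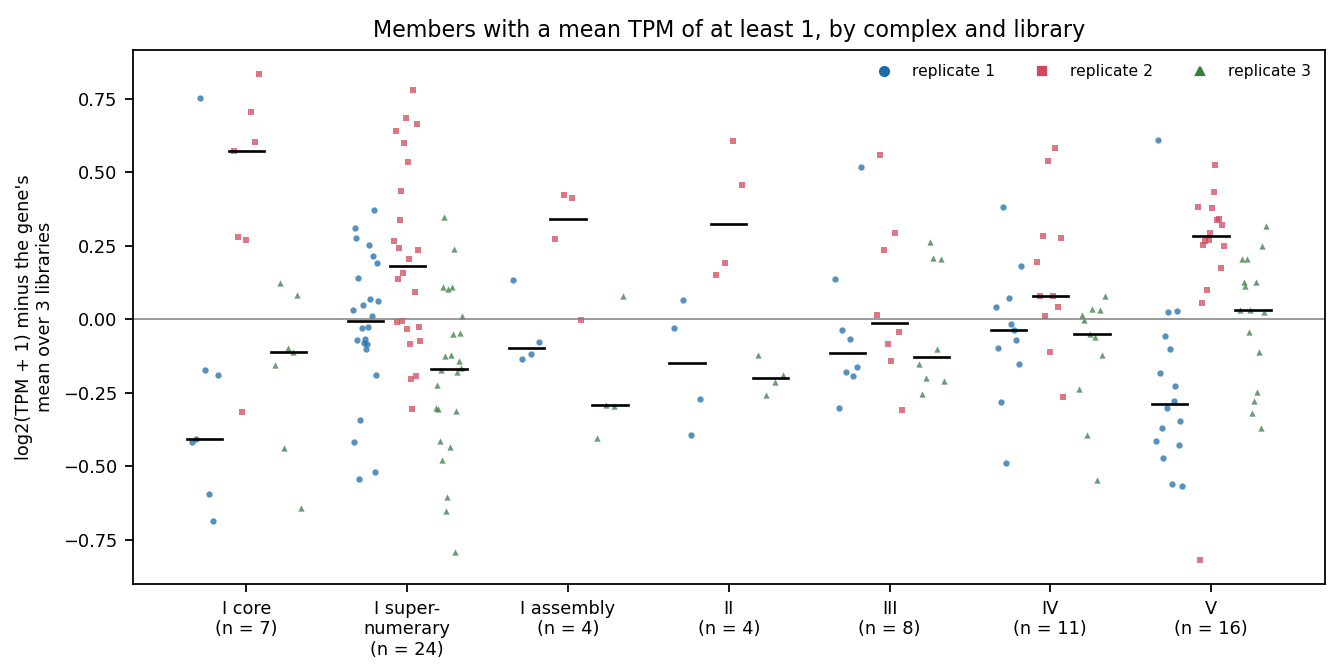
Members with a mean TPM of at least 1, as log2(TPM + 1) in each library minus the same gene's mean over the 3 libraries, by complex and role. Points are genes and black bars medians. On this TPM scale the median of replicate 2 is the highest in each of the 7 groups drawn (in 4 of them after TMM scaling), with the narrowest gaps in complexes III and IV.

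The members lie on 19 chromosomes, and 3 of them are X-linked (Ndufb11, Ndufa1 and Cox7b). They are shorter than most genes, with a median span of 7.42 kb and 4 exons against 17.3 kb and 7 exons over all protein-coding genes. Across the 94 members the level in TPM followed the span little (Spearman's rho 0.12), against 0.29 across all protein-coding genes, a description over genes that share the same libraries. Among detected genes these values were 0.11 and 0.19. With the number of exons, rho was 0.40 across the 94 members and 0.42 across all protein-coding genes. For 35 members (37.2%) another protein-coding gene starts on the opposite strand within 1000 bases of the member's start, against 10.8% of all protein-coding genes. Among detected genes the shares were 35.3% and 17.6%.

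The 35 members form 36 such pairs, and in 13 of them the transcripts run over each other at their starts. As the sources used here do not say whether counting used the strand, levels in overlapping pairs are uncertain. In 20 pairs the respiratory chain gene was higher in all 3 libraries, in 12 its partner was, and in 4 the order changed. Ndufs1 starts 8 bases from Eef1b2, a translation elongation factor gene with 16.4, 17.1 and 17.4 TPM, a range that overlapped that of Ndufs1. Ndufa7 starts 10 bases from Rps28, a ribosomal protein gene with 17.0, 15.2 and 16.5 TPM that lay above Ndufa7 in each library. Sdha starts 29 bases from Ccdc127, which had 2.71, 1.15 and 1.1 TPM and lay far below it. Atp5j overlaps the start of Gabpa, the gene of a transcription factor long studied at respiratory chain promoters, which had 14.3, 11.0 and 10.9 TPM. Gabpa was highest in replicate 1, where Atp5j was lowest.

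Promoter sequences from RefSeq (build GRCm38.p6, 250 bases before to 50 after an annotated start) matched 76 members with 81 promoters. Their median GC content was 58.3%, against 56.3% for 21262 promoters of protein-coding genes, and they held a median of 20 CpG dinucleotides against 13. Matches to 5 motifs were searched on both strands: CCGGAAG, the core bound by ETS factors such as GABP, GCATGCGC, a portion of the site of NRF1, AAGATGG, a YY1 core, AAGGTCA, a site bound by ERR-type nuclear receptors, and TATAAA. Of these, CCGGAAG was present in 22.2% of the 81 promoters (11.6% of protein-coding promoters), GCATGCGC in 14.8% (3.51%), AAGATGG in 14.8% (6.24%), AAGGTCA in 9.88% (4.08%) and TATAAA in 9.88% (12.6%). At least 1 of the first 3 motifs was present in 43.2% of member promoters and 19.5% of protein-coding promoters, and no member promoter had matches of 2 motifs that overlapped. A match describes the letters and is no evidence of binding.

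Promoters of 4 members are shown because they span these patterns: a highly expressed subunit with several motifs, the member that shares its start region with Gabpa, and the Cox8 pair of a broadly expressed gene and a muscle form. Each is given 5′ to 3′ on the gene's own strand, with motif letters in capitals and the rest in lower case. Atp5k (chr5:108434350-108434649, minus strand) holds GCATGCGC on both strands in 1 run of 10 letters, then CCGGAAG as its reverse complement, and AAGGTCA. Atp5j (chr16:84834927-84835226, minus strand, the downstream of its 2 listed starts) holds AAGATGG and CCGGAAG. Cox8a (chr19:7217567-7217866, minus strand) holds 2 copies of CCGGAAG in reverse complement, and Cox8b (chr7:140900397-140900696, minus strand) holds TATAAA alone.
Atp5k: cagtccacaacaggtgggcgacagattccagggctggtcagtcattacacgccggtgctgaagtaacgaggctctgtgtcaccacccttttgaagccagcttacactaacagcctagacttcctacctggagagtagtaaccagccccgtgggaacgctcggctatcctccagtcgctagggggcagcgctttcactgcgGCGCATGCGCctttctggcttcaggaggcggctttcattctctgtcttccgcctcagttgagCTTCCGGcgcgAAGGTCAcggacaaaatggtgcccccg
Atp5j: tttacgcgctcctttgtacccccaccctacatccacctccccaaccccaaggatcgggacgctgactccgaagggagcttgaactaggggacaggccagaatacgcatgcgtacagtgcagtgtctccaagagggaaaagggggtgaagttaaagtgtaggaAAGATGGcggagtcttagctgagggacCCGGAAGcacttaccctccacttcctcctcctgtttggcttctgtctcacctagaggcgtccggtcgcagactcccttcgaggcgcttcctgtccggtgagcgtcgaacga
Cox8a: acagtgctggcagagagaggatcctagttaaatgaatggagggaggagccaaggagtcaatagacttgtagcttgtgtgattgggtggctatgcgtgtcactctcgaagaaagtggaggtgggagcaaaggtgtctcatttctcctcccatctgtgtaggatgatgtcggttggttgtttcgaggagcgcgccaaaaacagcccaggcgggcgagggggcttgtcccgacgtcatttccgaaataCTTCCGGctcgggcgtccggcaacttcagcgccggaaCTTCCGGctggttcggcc
Cox8b: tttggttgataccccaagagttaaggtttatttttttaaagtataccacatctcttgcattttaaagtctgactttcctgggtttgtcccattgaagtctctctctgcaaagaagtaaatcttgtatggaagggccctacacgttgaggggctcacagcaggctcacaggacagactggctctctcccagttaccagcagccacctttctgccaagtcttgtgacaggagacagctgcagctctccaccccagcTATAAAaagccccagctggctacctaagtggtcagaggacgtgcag

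Cox8a and Cox8b also differ in CpG content, with 19 and 2 CpG dinucleotides in these windows. Over the 4 tissue isoforms with a listed promoter (Cox6b2, Cox7a1, Cox7b2 and Cox8b) the median was 8.5, none held any of the first 4 motifs, and 2 held TATAAA. The 58 promoters of detected members held CCGGAAG in 27.6% and AAGGTCA in 13.8%, and the 23 of members not detected held them in 8.70% and in none. The other motifs were nearly as frequent in both sets: GCATGCGC and AAGATGG were each in 15.5% and 13.0%, and TATAAA was in 10.3% and 8.70%. The windows are few, and members that share a start with another gene share part of that gene's promoter.

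Genes that serve the chain without matching the name patterns were also measured. All 7 electron carriers and entry enzymes were detected. Gpd2, the mitochondrial glycerol-3-phosphate dehydrogenase, led at 21.3 ± 2.70 TPM by alignment, followed by Cycs, cytochrome c, at 9.74 ± 0.998 TPM. In the read-based tables Gpd2 led at a mean of 66.5 TPM, and Cycs, at 12.8 TPM, was below Etfa, at 18.4 TPM. Of 32 assembly factors and inhibitors 22 were detected, with a median of 2.53 TPM. By alignment the highest was Cox17, a copper chaperone for complex IV, at 19.3 ± 1.77 TPM. Foxred1, an assembly factor of complex I, reached 17.4 ± 3.11 TPM, with 85.0% outside coding transcripts. In the read-based tables Surf1 was highest at a mean of 27.3 TPM, against 16.4 TPM for Foxred1 and 13.9 TPM for Cox17. Sco2, a further copper chaperone, had 0.09, 0.07 and 0 TPM and was at the floor.

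Among 11 regulators of these genes, 8 were detected. Esrra, a nuclear receptor, was highest with 40.8, 54.1 and 39.8 TPM, and Gabpb1, a partner of Gabpa, had 17.7, 19.7 and 20.5 TPM. The coactivator Ppargc1a had 0.23, 0 and 0 TPM, whereas its relatives Ppargc1b and Pprc1 had 2.19, 5.79 and 3.16 and 12.6, 24.7 and 12.1 TPM. By alignment Ppargc1a sat at the floor while both relatives were detected. Tfam and Tfb1m, which serve transcription of the mitochondrial genome, were below 1 TPM in at least 1 library, with means of 0.95 and 0.907 TPM. The read-based means were higher, at 1.84 TPM for Ppargc1a, 2.81 TPM for Tfam and 8.50 TPM for Tfb1m.

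The 13 messenger genes of the mitochondrial genome encode the remaining subunits of complexes I, III, IV and V. By alignment they summed to 325 to 610 TPM, against 594 to 758 TPM for the 94 nuclear members, and 8 of the 13 were detected. The mitochondrial genome lies outside nuclear chromatin, so these sums do not compare like pools of RNA. The gene mt-Co1, of the catalytic subunit of complex IV, had 247, 116 and 186 TPM by alignment and was lowest in replicate 2. On the TPM scale Atp5b, Sdha and Cox7c were highest in that library, as were 56.4% of 9450 protein-coding genes, and Atp5k was lowest. After TMM scaling that share was 38.1%, so no contrast between the genomes can be read from these genes. The gene mt-Co2 was listed at 0 in every alignment-based library and at a mean of 14.7 TPM in the read-based tables. Others were uneven by alignment: mt-Atp6 had 48.6, 0 and 0 TPM, mt-Nd4l 19.8, 20.2 and 0 TPM and mt-Co3 0.13, 0.02 and 4.7 TPM. Their read-based means were 37.7, 29.5 and 18.3 TPM, so the alignment-based sum and the count of 8 are uncertain.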

How the data were processed

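RNA of the chromatin fraction was measured in 3 libraries of 1 group. The file headers and labels name mouse build mm10 and GENCODE release M21. Each library has alignment-based gene and transcript tables and a read-based transcript table. The authors deposited expected counts, which are estimates of sequenced fragments and may be fractional. The TPM values deposited by the authors are relative abundances corrected for length. The programs and any use of read strand were not given in the sources used here. Rows of no annotated gene held 0.206% to 1.25% of expected counts and stayed out of scaling.

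Members were joined by gene identifier, and read-based TPM was summed per gene. Members and lists were chosen with earlier results of these data known. A gene was called detected at 1 TPM or more in every library. Fold comparisons used a pseudocount of 1. Pairs were tested with an exact two-sided sign-flip permutation test over libraries. Differences and SDs measure only the spread between these samples. TMM factors came from edgeR 4.0.16 and size factors from DESeq2 1.42.0 (R 4.3.3), for scaling alone. Other steps used pandas 2.3.3 and scipy 1.17.1 in Python 3.11.15, and scripts were tested on simulated data. A chi-square of counts over genes gave 41.6 to 103 per degree of freedom between libraries, so none repeated another. Genes named are the complex I core (1 of its 7 genes is counted but not reported here), the Sdh genes, the isoform pairs, the 3 highest and 3 lowest of each complex, the assembly factors, the 5 members at each end of the coefficient of variation, the 5 with the largest share outside coding transcripts, and the 5 with the largest gap between tables. Other members, partners and promoters were named after their values were seen. Alternatives were the detection threshold, the pseudocount, the table, posterior mean TPM, coding transcripts alone, scaling, filters, and leaving out each library.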

Additional observations from a re-analysis of the deposited data

How the results depend on the processing

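The number of detected members stayed within 1.5 times the main count under all settings tried, from 49 with coding transcripts alone to 86 with any count in every library, and was 70 or 71 with 1 library left out. The median over all members of 3.10 TPM became 6.78 in the read-based tables, 4.19 with posterior mean TPM, 1.67 with coding transcripts alone, 1.79 as CPM and 4.81 over members with a mean of at least 1 TPM, and it lay between 2.62 and 3.27 with 1 library left out. Of the 12 pair differences, 10 kept their direction under every setting. Cox7a2 minus Cox7a2l reversed to 1.43 in the read-based tables and Atp5g2 minus Atp5g3 to 0.62 with coding transcripts alone, and the cause was not tested. The log2 ratio of replicate 1 to the others reversed from -0.17 to 0.10 with TMM and 0.084 with DESeq2 size factors, and was -0.31 in the read-based tables. With a limit of 75% in place of 50%, 17 detected members lay mainly outside coding transcripts, and the count was 36 to 41 with 1 library left out. Replicate 2 was highest for 49 of 74 members by TPM, 28 with TMM, 26 with DESeq2 size factors, 30 with coding transcripts alone and 59 in the read-based tables, a set of settings added after the data were seen. For members and the 9450 genes the shares were 66.2% and 56.4% by TPM, 37.8% and 38.1% with TMM. They were 35.1% and 36.3% with DESeq2 size factors, 40.5% and 48.2% with coding transcripts alone, and 79.7% and 57.2% in the read-based tables. The median coefficient of variation kept between 24.4% and 29.1%. Depth limits the precision of low levels, since 20 members averaged fewer than 10 counts.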
